A study of Saccharomyces cerevisiae with 6 samples.

Results

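The mitochondrial protein import machinery was followed through the transcripts of 34 nuclear genes of the budding yeast Saccharomyces cerevisiae. They were chosen by name as subunits of the outer and inner membrane translocases, their chaperones, the matrix peptidase and the matrix folding machinery. Each had 1 probe among the 6256 non-control probes of the array, found through its systematic name. The arrays came from yeast sampled at 9 h of fermentation on xylose (3 arrays) and at 3 h of fermentation on glucose (3 arrays), each sugar at 50 g/L. Sugar and time changed together, so every difference carries the effect of each, and these cannot be told apart. The sources used here give neither strain nor genotype. The source name of each glucose sample says 9 h, whereas its title and time point say 3 h, which is the time used here. Titles number the replicates as fermentation runs, and nothing says that these were separate cultures, so the spread behind each p-value may be partly or wholly technical.

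Most mitochondrial proteins are made in the cytosol and enter the organelle as precursors. The TOM complex is the common gate of the outer membrane. Behind it the SAM complex inserts barrel proteins into the outer membrane, the Mia40 relay oxidises proteins of the intermembrane space, small TIM chaperones carry hydrophobic precursors across that space, the TIM22 translocase inserts carriers into the inner membrane, and the TIM23 translocase with its motor draws presequence proteins into the matrix. There the processing peptidase removes the presequence and Hsp60 with Hsp10 folds the protein. Growth on sugars that repress respiration less than glucose does is known to go with more respiratory enzyme, most subunits of which have to be imported.

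Levels are log2 processed signals less the array's 75th percentile, so they are relative within an array, and a change shared by all transcripts could not be seen. A transcript change in every cell and a change in the share of cells that hold it cannot be told apart. The 75th percentile of signal lay between 1407 and 3871 units, and between 5774 and 5972 probes were well above background on an array. Xylose replicates 1 and 2 were close to each other, with a median absolute difference of 0.09 over all genes tested, where the other pairs within a sugar lay between 0.46 and 0.69. Replicates 1 and 2 of both sugars were on slide 1 and replicate 3 of both on slide 2. In glucose replicate 2 the marker genes LEU2 and MET17, which laboratory strains often lack, were at 0.34 and 4.57, and on the other arrays they were not well above background, with measured levels of -9.07 to -7.88. On the same array the asparaginase gene ASP3-1 was not well above background, at -8.55, against 2.87 to 3.99 elsewhere. This array stands apart from its label group, and results that rest on it are given with and without it.

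None of the 34 import genes passed the test between the sugars. All 34 were well above background on all 6 arrays, so none was lost to the filter on dim probes. By limma with Benjamini-Hochberg adjustment over 5899 genes at a threshold of 0.05, 0 import genes were called higher and 0 lower, where 1.46% of all genes tested were called higher and 1.12% lower. Without glucose replicate 2 the counts were again 0 and 0, where 5.88% and 5.66% of all genes were called. In either direction that was 0 of 34, against 2.58% of all genes with all arrays and 11.5% without glucose replicate 2. Blocking on the replicate number also called 0 of 34, against 5.27% of all genes. At an unadjusted p under 0.05 there was 1 import gene with all arrays, TOM6, and 2 without glucose replicate 2, TOM6 and TIM9. That is 2.94% of the import genes with all arrays, against 16.5% of all genes, 8.73% higher and 7.80% lower. Without glucose replicate 2 it is 5.88%, against 27.8% of all genes. Under the replicate block 5 import genes (14.7%) had an unadjusted p under 0.05, against 29.0% of all genes. The smallest limma adjusted p of an import gene with all arrays was 0.198. With the slide as a block 1 import gene was called, MAS2, against 11.8% of all genes. With the slide as a block and glucose replicate 2 left out, 17 import genes were called (50%), 8 higher and 9 lower, where 64.6% of all genes were. In that fit 2 of the 5 arrays were the close pair of xylose replicates 1 and 2. With these averaged to 1 sample, no block and the same array left out, 0 import genes were called, against 1.66% of all genes. In the averaged fit 1 had an unadjusted p under 0.05, against 18.9% of all genes. Leaving out that array with no block and no averaging had also called 0, so the effect of averaging alone was not tested.

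All 34 differed by less than 2-fold with all arrays, as did 88.7% of all genes tested. Differences ran from -0.61 for MAS2 to 0.97 for TOM6 on the log2 scale, with a median of 0.22 over the import genes and 0.02 over all genes. Without glucose replicate 2 the median of the import genes was 0.00, that of all genes 0.04, and TIM9 alone of the 34 differed by more than 2-fold, where 85.2% of all genes differed by less. The 95% confidence interval lay inside 2-fold either way for 13 import genes (38.2%; 34.4% of all genes), and for 21 (61.8%; 38.4% of all genes) without glucose replicate 2. With all arrays it lay inside 2-fold for 20 import genes (58.8%) under the slide block, against 56.8% of all genes, and for 20 under the replicate block, against 56.5%. For the remaining import genes of each fit a 2-fold difference in at least 1 direction was inside the interval. The smallest log2 difference called for any gene was 1.101 when all arrays were used and 0.73 without the array in question.

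**Figure D1:**
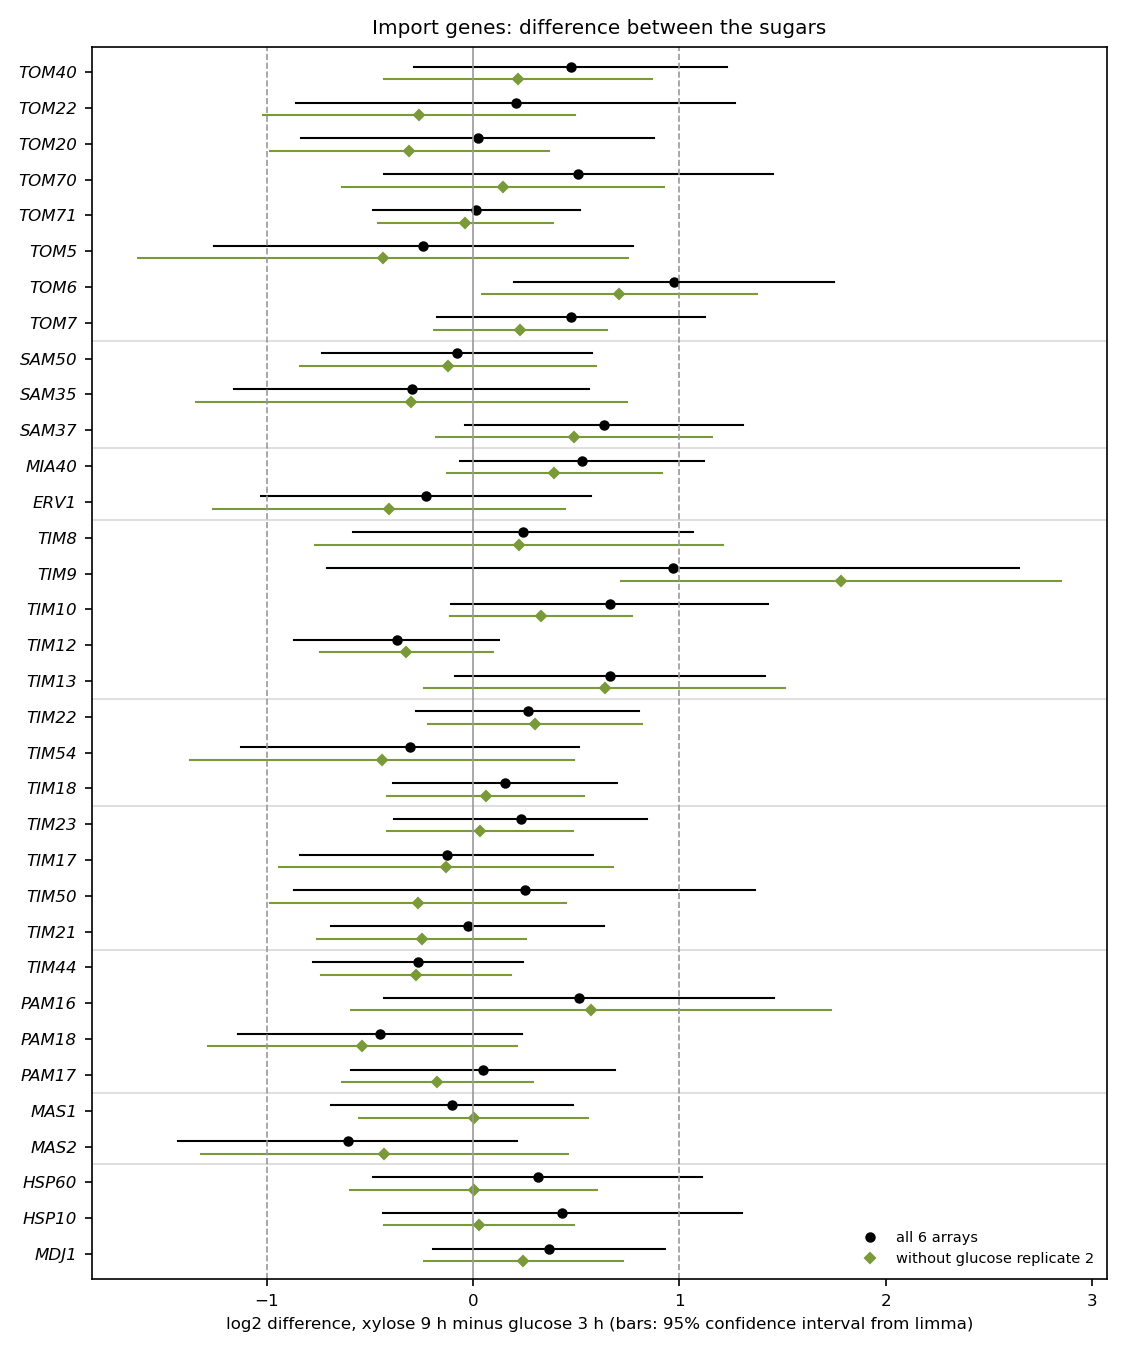
Log2 difference, xylose 9 h minus glucose 3 h, of each of the 34 import genes, with bars for the 95% confidence interval from limma. Black circles use all 6 arrays, green diamonds leave out glucose replicate 2, and dashed lines mark 2-fold; the circles lie between -0.61 and 0.97, and TIM9 is the one diamond beyond 2-fold.

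The 8 genes of the TOM complex had differences from -0.24 to 0.97 with a median of 0.34, or 0.05 without glucose replicate 2. TOM6 (YOR045W), a small subunit that stabilises the complex, had the highest difference of all import genes with all arrays. Without glucose replicate 2 TIM9 had the highest (1.78). TOM6 levels were 0.34, 0.26 and -0.11 in xylose replicates 1 to 3, against -0.24, -1.34 and -0.84 in glucose replicates 1 to 3. Every xylose array was above every glucose array. The difference was 0.97 ± 0.33 (SE, n = 3 against 3; limma adjusted p = 0.198), and 0.71 ± 0.27 without glucose replicate 2 (adjusted p = 0.157). TOM7 (YNL070W), another small subunit, which modulates the assembly of the complex, also showed no overlap, at 0.81, 0.76 and 0.70 in xylose and 0.53, -0.21 and 0.52 in glucose. Its difference of 0.47 ± 0.28 was 0.23 ± 0.17 without glucose replicate 2, and its adjusted p was 0.464 and 0.445 by limma. TOM5 (YPR133W-A), a small subunit that helps pass precursors to the channel, was the TOM gene with a negative difference with all arrays, at -0.24 ± 0.43.

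TOM40 (YMR203W), the channel itself, differed by 0.47 ± 0.32, and TOM22 (YNL131W), the central receptor, by 0.21 ± 0.45. TOM20 (YGR082W), the receptor for presequences, differed by 0.02 ± 0.36. Without glucose replicate 2 these values were 0.22 for TOM40, -0.26 for TOM22 and -0.31 for TOM20. All 3 were at their lowest of the 6 arrays in glucose replicate 2, at -1.66, -1.24 and -2.70.

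TOM70 and TOM71 are paralogous receptors for hydrophobic precursors such as carriers, TOM70 being the major one. TOM70 (YNL121C) was at -1.17, -1.13 and -1.68 in xylose replicates 1 to 3, against -1.10, -2.57 and -1.84 in glucose replicates 1 to 3. TOM71 (YHR117W) was at -0.88, -0.95 and -0.80 in xylose and at -0.83, -1.002 and -0.84 in glucose. TOM71 thus had a spread of 0.08 (SD) in xylose and 0.09 in glucose, and TOM70 of 0.31 and 0.73. The difference between the sugars was 0.51 ± 0.40 for TOM70 and 0.02 ± 0.21 for TOM71. The change of TOM71 less that of TOM70 was -0.49, with p = 0.3 in the exact two-sided permutation test over arrays, where 0.1 is the smallest p that 3 against 3 allows. Without glucose replicate 2 it was -0.18 (exact p = 0.6).

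**Figure D2:**
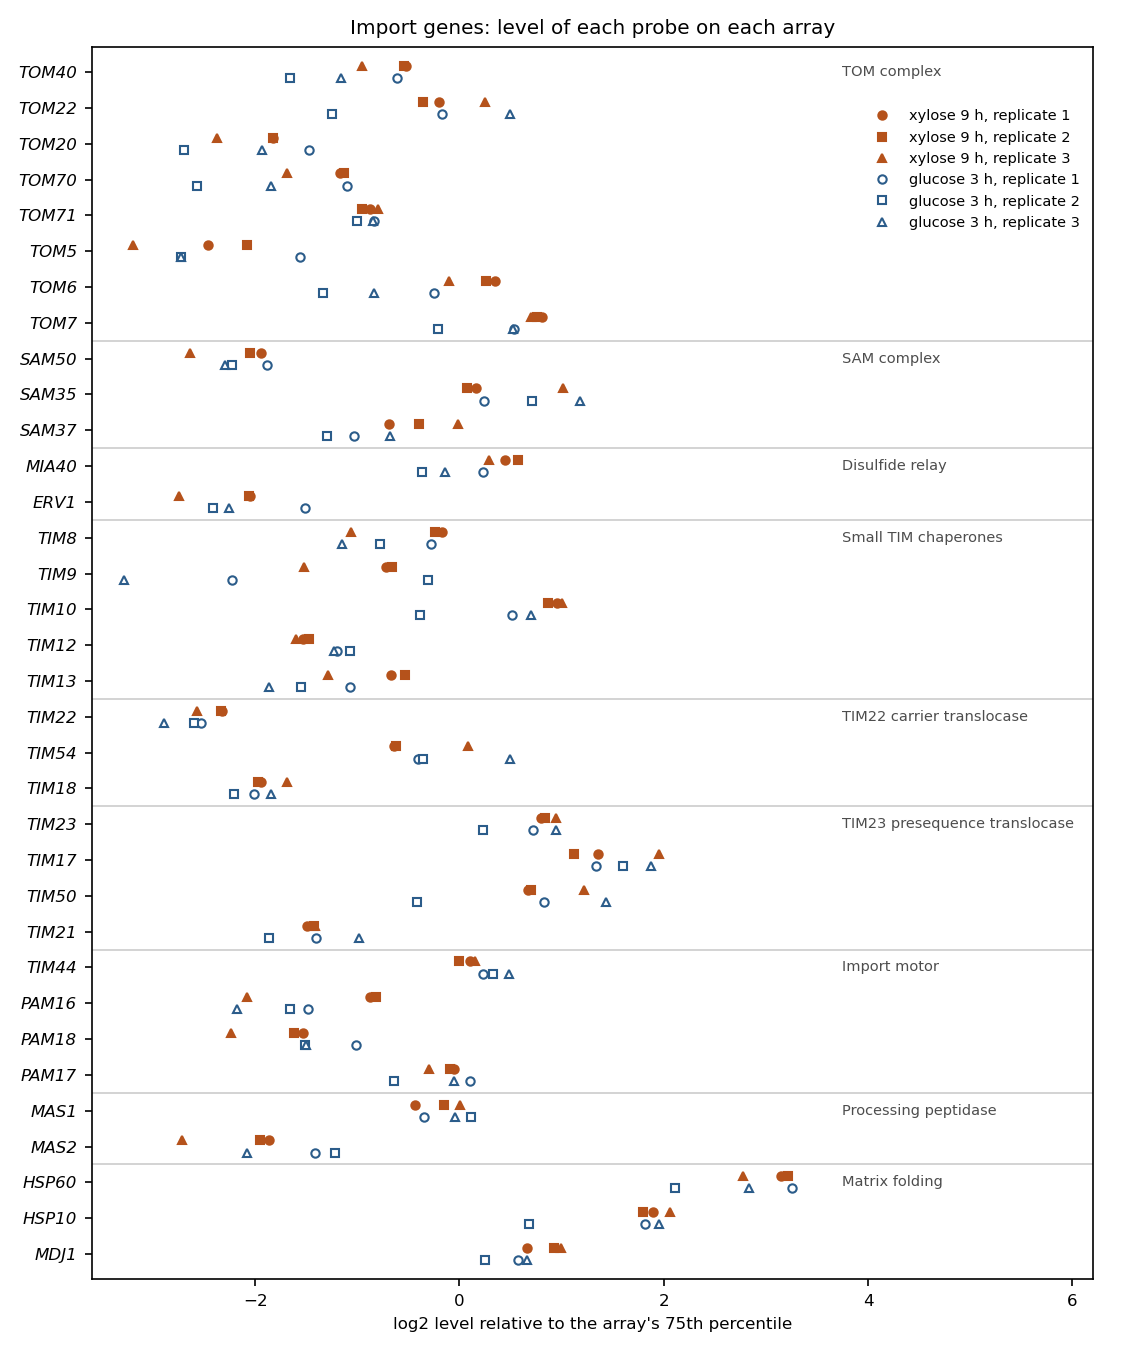
Log2 level relative to the array's 75th percentile of each of the 34 import genes on each of the 6 arrays, grouped by role. Filled symbols are xylose 9 h and open symbols glucose 3 h, with circles, squares and triangles for replicates 1, 2 and 3; open squares (glucose replicate 2) are the leftmost symbol for 18 of the 34 genes, and levels of different genes are not comparable because each has its own probe.

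In the SAM complex none of 3 genes passed. SAM50 (YNL026W), the insertase for barrel proteins, differed by -0.08 ± 0.28 and SAM35 (YHR083W), its partner that binds the sorting signal, by -0.30 ± 0.37. SAM37 (YMR060C), the subunit that links SAM to TOM, was at -0.69, -0.39 and -0.01 in xylose, against -1.04, -1.29 and -0.67 in glucose. Replicate 3 was the highest SAM37 array of either sugar, and the groups overlapped only where xylose replicate 1 lay just below glucose replicate 3. Its difference was 0.63 ± 0.29 (limma adjusted p = 0.328), with 0.62 within slide 1 and 0.66 within slide 2.

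The disulfide relay of the intermembrane space consists of MIA40 (YKL195W), which oxidises incoming proteins, and ERV1 (YGR029W), which reoxidises Mia40. MIA40 was at 0.45, 0.57 and 0.29 in xylose replicates, against 0.23, -0.36 and -0.14 in glucose replicates, with no overlap. Its difference was 0.53 ± 0.25 (limma adjusted p = 0.355), or 0.39 ± 0.21 without glucose replicate 2. ERV1 differed by -0.23 ± 0.34, and by -0.41 ± 0.34 without that array.

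The small TIM chaperones are substrates of that relay. Their 5 genes had the widest range of differences of any role, from -0.37 for TIM12 to 0.97 for TIM9. TIM9 (YEL020W-A) and TIM10 (YHR005C-A) encode the essential chaperone complex for carriers. TIM9 was at -0.72, -0.66 and -1.52 in xylose replicates 1 to 3, against -2.22, -0.31 and -3.28 in glucose replicates 1 to 3. Glucose replicate 2 was thus the highest of all 6 TIM9 arrays, and the other glucose arrays were the lowest. The difference was 0.97 ± 0.71 (limma adjusted p = 0.567), and without glucose replicate 2 it was 1.78 ± 0.43 (95% interval 0.72 to 2.85; adjusted p = 0.0541), short of the threshold. Leaving out glucose replicate 3 instead, the lowest TIM9 array, gave 0.30 ± 0.59 (limma adjusted p = 0.849), so the TIM9 value depends on single glucose arrays. TIM10 was at 0.96, 0.87 and 1.0 in xylose, against 0.52, -0.39 and 0.71 in glucose. The TIM10 groups did not overlap, and glucose replicate 2 was its lowest array where it was the highest for TIM9. The TIM10 difference was 0.66 ± 0.33, or 0.33 ± 0.18 without glucose replicate 2.

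TIM8 (YJR135W-A) and TIM13 (YGR181W) form a second chaperone pair, which serves Tim23 among others. TIM13 was at -0.67, -0.53 and -1.28 in xylose, against -1.07, -1.55 and -1.86 in glucose. Within each slide the xylose level was the higher one, with differences of 0.71 and 0.58, and the pooled value was 0.67 ± 0.32 (limma adjusted p = 0.359). TIM8 differed by 0.24 ± 0.35. TIM12 (YBR091C), the small TIM that docks the chaperones at the TIM22 translocase, lay the other way. It was at -1.53, -1.47 and -1.60 in xylose, against -1.20, -1.07 and -1.22 in glucose, with no overlap and an SD of 0.06 and 0.08. Its difference was -0.37 ± 0.21 (adjusted p = 0.451) with all arrays, -0.32 without glucose replicate 2 and -0.37 within either slide.

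**Figure D3:**
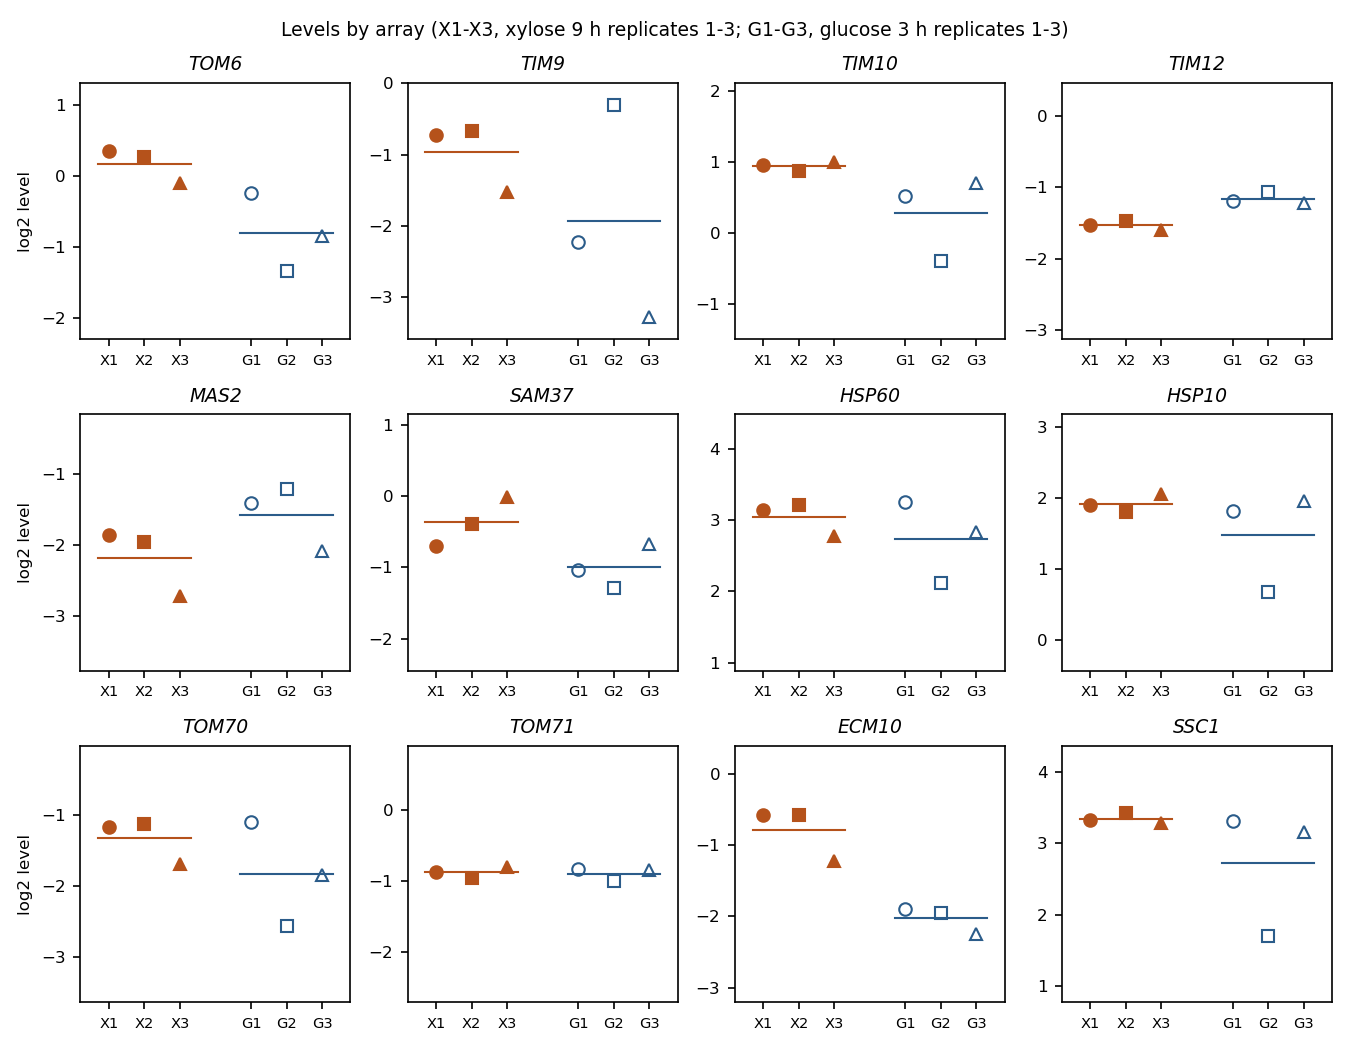
Log2 levels relative to the array's 75th percentile of 10 import genes and of the Hsp70 genes ECM10 and SSC1, by array. Lines are group means and all panels span the same number of log2 units. Glucose replicate 2 (G2) is the highest array for TIM9 (-0.31), TIM12 (-1.07) and MAS2 (-1.22). It is the lowest for TOM6, SAM37, TOM70, TOM71, TIM10, HSP60, HSP10 and SSC1.

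The TIM22 translocase showed small differences. TIM22 (YDL217C), its channel, differed by 0.26 ± 0.23, TIM54 (YJL054W), a subunit facing the intermembrane space, by -0.31 ± 0.35, and TIM18 (YOR297C), which takes part in assembly, by 0.15 ± 0.23. TIM18 differed by 0.15 within slide 1 and 0.15 within slide 2.

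In the TIM23 translocase TIM23 (YNR017W) and TIM17 (YJL143W), which form its membrane core, differed by 0.23 ± 0.26 and -0.13 ± 0.30. TIM50 (YPL063W), the receptor facing Tom22, differed by 0.25 ± 0.47, its level being -0.42 in glucose replicate 2, against 0.68 to 1.43 on the other arrays. Without that array TIM50 differed by -0.27 ± 0.29. TIM21 (YGR033C), which couples the translocase to the TOM complex and to respiratory chain complexes, differed by -0.03 ± 0.28. All 4 had 95% intervals inside 2-fold either way without glucose replicate 2.

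Among the motor subunits TIM44 (YIL022W), which tethers the Hsp70 motor to the channel, was at 0.10, 0.00 and 0.15 in xylose, against 0.23, 0.33 and 0.49 in glucose. No xylose array reached a glucose array, and the difference was -0.27 ± 0.22 (limma adjusted p = 0.604). PAM18 (YLR008C), the J-protein that stimulates the motor, was at -1.53, -1.61 and -2.24 in xylose, against -1.01, -1.51 and -1.50 in glucose, again with no overlap. Its difference of -0.45 ± 0.29 (adjusted p = 0.513 by limma) was -0.54 ± 0.30 without glucose replicate 2. PAM16 (YJL104W), the J-like partner that restrains Pam18, lay on the other side at 0.52 ± 0.40, with 0.73 within slide 1 and 0.09 within slide 2. PAM17 (YKR065C), which supports the assembly of the motor, differed by 0.05 ± 0.27.

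The matrix processing peptidase has the catalytic subunit MAS1 (YLR163C) and the subunit MAS2 (YHR024C), which binds the presequence. MAS1 differed by -0.10 ± 0.25. With all arrays MAS2 had the lowest difference of all import genes, and without glucose replicate 2 PAM18 had it (-0.54). MAS2 was at -1.86, -1.95 and -2.72 in xylose replicates 1 to 3, against -1.41, -1.22 and -2.08 in glucose replicates 1 to 3. Replicate 3, on slide 2, was the lowest MAS2 array of either sugar, and the xylose level was the lower one on each slide, with differences of -0.59 within slide 1 and -0.63 within slide 2. The pooled difference was -0.61 ± 0.35 (limma adjusted p = 0.455). With the slide as a block it was -0.61 ± 0.12, and MAS2 then passed as lower in xylose (adjusted p = 0.0417), the 1 import gene of 34 that did (2.94%). The slide block called 11.8% of all genes, 5.29% lower and 6.48% higher, so the share among the import genes was below that among all genes. With the slide block kept and glucose replicate 2 left out MAS2 was also called (-0.56 ± 0.07; limma adjusted p = 0.00243). That fit called 17 of the 34 import genes (50%) and 64.6% of all genes, so the call does not set MAS2 apart. Its arrays included the close pair of xylose replicates 1 and 2. MAS2 was not called under the replicate block (limma adjusted p = 0.0899). Without a block it was not called when xylose replicates 1 and 2 were averaged (limma adjusted p = 0.663). Leaving out glucose replicate 2 without a block did not call it either (-0.43 ± 0.36; limma adjusted p = 0.501).

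In the matrix, HSP60 (YLR259C) and HSP10 (YOR020C) encode the chaperonin and its lid, and MDJ1 (YFL016C) the J-protein that works with mitochondrial Hsp70 in folding. HSP60 was at 3.15, 3.22 and 2.78 in xylose, against 3.25, 2.12 and 2.83 in glucose. HSP10 was at 1.89, 1.80 and 2.06 in xylose, against 1.82, 0.68 and 1.96 in glucose. For each of them glucose replicates 1 and 3 lay among or next to the xylose arrays, and glucose replicate 2 lay below all others. Their differences of 0.31 ± 0.34 and 0.43 ± 0.37 were 0.00 ± 0.24 and 0.03 ± 0.18 without that array. MDJ1 was at 0.6650, 0.93 and 1.0 in xylose and 0.58, 0.25 and 0.6644 in glucose, with a difference of 0.37 ± 0.24 (limma adjusted p = 0.514). Its groups did not overlap, but xylose replicate 1 and glucose replicate 3 were almost equal.

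Across the whole machinery the groups of the 2 sugars did not overlap for 8 of the 34 genes (23.5%), 5 with xylose higher and 3 with xylose lower. Over all genes tested the groups did not overlap for 23.5%, 12.6% with xylose higher and 10.9% with it lower. The 5 were TOM6, TOM7, MIA40, TIM10 and MDJ1, and the 3 were TIM12, TIM44 and PAM18. For MDJ1 and PAM18 the groups all but met. The spread of the import genes was close to that of all genes, with a median SD of 0.27 in xylose and 0.43 in glucose, against 0.29 and 0.46 over all genes tested.

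Glucose replicate 2 was the lowest of the 6 arrays for 18 import genes (52.9%), against 25.2% of all genes tested, and the highest for 4, against 26.2% of all genes. Relative to the mean of glucose replicates 1 and 3, the import genes lay at a median of -0.41 in that array, and all genes at 0.02. It was the lowest glucose array for 21 import genes (61.8%), against 37.3% of all genes. With it, 22 import genes (64.7%) had a positive difference, against 51.6% of all genes, and without it 18 (52.9%), against 53.0% of all genes. Of the 34, 28 kept their sign and 6 changed it, TOM22, TOM20, TOM71, TIM50 and PAM17 turning negative and MAS1 positive. Centring on the spike-in probes lowered every difference by the same amount (-0.69), which left 2 import genes positive, so each sign is relative to the scaling. Whether the markers by which this array differs bear on the import genes was not tested. Replicate 3 also stood apart in both sugars: for 21 import genes (61.8%) it was the highest or the lowest array of each sugar, as for 65.7% of all genes. Within slide 1 the median difference of the import genes was 0.29, and within slide 2, with 1 array per sugar and no test, 0.05.

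Of 26 other genes of the pathway, those for further motor subunits, insertases, peptidases and quality control factors, 0 were called by limma with all arrays, against 2.58% of all genes. With all arrays 3 of the 26 had an unadjusted p under 0.05, against 16.5% of all genes. Without glucose replicate 2, 1 of the 26 was called, against 11.5% of all genes. Their median difference was -0.11 in either fit. The called gene was ECM10 (YEL030W), a mitochondrial Hsp70 and paralog of SSC1. ECM10 was at -0.58, -0.58 and -1.23 in xylose, against -1.89, -1.95 and -2.24 in glucose. All xylose arrays were above all glucose arrays, glucose replicate 2 included, and the difference was 1.24 ± 0.27 (limma adjusted p = 0.0706). Leaving out that array gave 1.27 ± 0.28 (adjusted p = 0.0454). SSC1 (YJR045C), the Hsp70 that drives import, was at 3.32, 3.43 and 3.28 in xylose, against 3.32, 1.70 and 3.16 in glucose. Its difference was 0.62 ± 0.44, or 0.11 ± 0.18 without glucose replicate 2, and how far the 2 probes tell these paralogs apart was not tested.

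**Figure D4:**
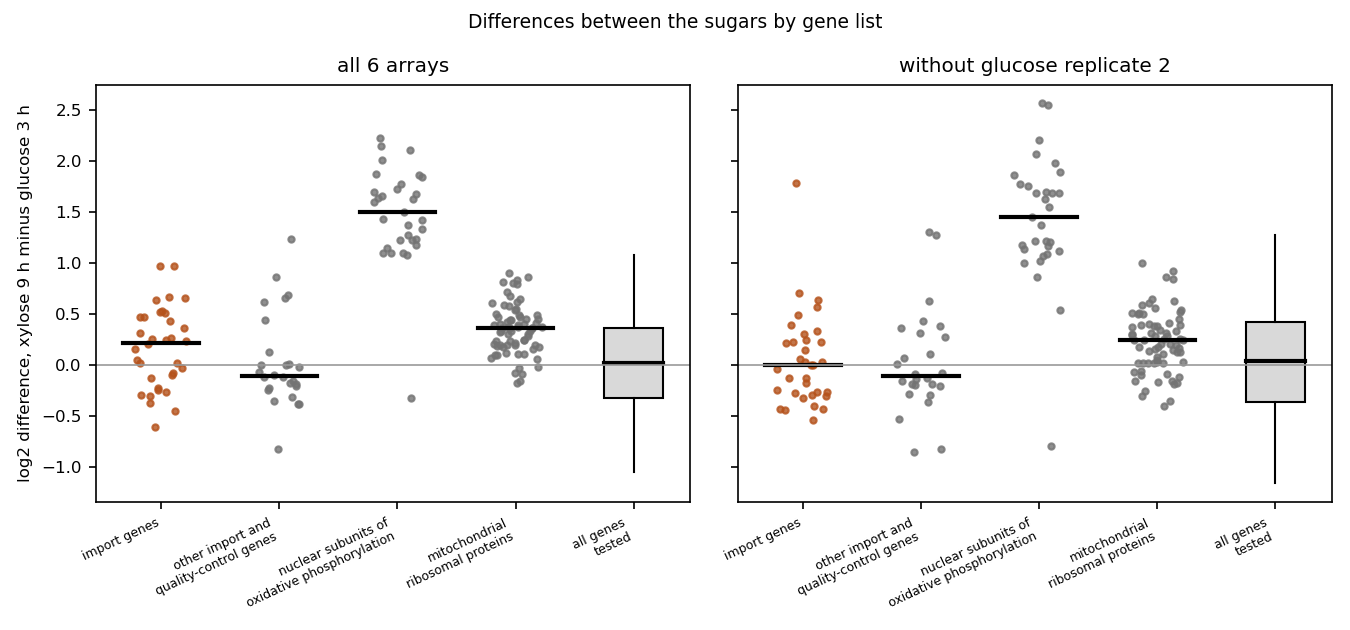
Log2 differences, xylose 9 h minus glucose 3 h, of genes in 4 lists (points, with the median as a line) and of all genes tested (box from the 25th to the 75th percentile, line at the median, whiskers from the 5th to the 95th). With all arrays the import genes centre on 0.22 and the nuclear subunits of oxidative phosphorylation on 1.50.

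Other nuclear genes for mitochondria give a scale for these values. Of 31 nuclear subunits of the cytochrome bc1 complex, cytochrome c oxidase and ATP synthase, many of which carry presequences, 17 (54.8%) rose in xylose and 0 fell (limma, all arrays). Over all genes tested 1.46% were called higher and 1.12% lower. The median difference of the 31 was 1.50, or 1.46 without glucose replicate 2. Without that array 22 rose and 1 fell, COX5B (-0.80), the oxidase subunit used at low oxygen. Over all genes the shares in that fit were 5.88% higher and 5.66% lower. Of 71 mitochondrial ribosomal proteins 0 were called with all arrays or without glucose replicate 2, against 2.58% and 11.5% of all genes. With all arrays 5 of the 71 had an unadjusted p under 0.05, against 16.5% of all genes. Their median was 0.36, or 0.24 without glucose replicate 2, for the 71 genes. The difference between the lists was not tested, because the lists were chosen with results of these data known.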

How the data were processed

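Total RNA was hybridised to 6 one-colour Cy3 arrays. Spot intensity was read by the authors with Agilent Feature Extraction 10.1.1.1 (submitters' processing notes), and the processed intensity is background-subtracted, per the file headers. The sources used here do not say how the deposited log2 table was made. When it was compared with the spots, 100% of its log2 values lay within 0.0015 of the mean log2 processed signal of the retained spots less 1 constant for the array. Scale and direction are therefore known, and genes were not centred. The medians of its columns were -1.26, -1.24 and -1.40 (xylose replicates 1, 2 and 3) and -1.28, -1.28 and -1.43 (glucose replicates 1, 2 and 3).

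Controls and spots marked non-uniform or outlying (727 to 1722 of 43792 per array) were left out. No spot was saturated. The processed intensity deposited by the authors was put on the log2 scale, set relative to the 75th percentile of its array and averaged over the 7 spots of a probe. Tested were probes with values on all arrays and, on at least 3, more than 0.5 of spots well above background. The sugars were compared by limma 3.58.1 under R 4.3.3 (two-sided lmFit and eBayes, with Benjamini-Hochberg adjustment across the 5899 genes tested), with sugar as the only term, and the step was tested on simulated data. Locus tags gave 5756 of 6256 probes a symbol in the table for assembly R64. All 34 genes are named. The rule for named genes gave values by array for TOM70, TOM71 and the 3 highest and 3 lowest differences, and those of other genes were added after their values were seen. The members and lists were chosen with earlier results of these data known. A planned promoter motif search was not run, since promoter sequences were not used here. Deviations from the group means correlated at 0.40, 0.22 and 0.71 for replicate numbers 1, 2 and 3 across sugars. Xylose replicate 2 correlated with glucose replicate 1 at 0.41, so these values do not settle how replicates 1 and 2 pair. Replicate 3 of both sugars was alone on slide 2, so its value cannot be told apart from the slide. The replicate block takes the pairing from the numbers in the titles. Alternatives were other scalings (median, quantile, spike-in), normexp background correction with an offset of 50 on median signals (mean signals were not used), other filters, the deposited table, blocks, within-slide values and leaving out each array. The number of arrays limits the precision.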

Additional observations from a re-analysis of the deposited data

How the results depend on the processing

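The count of import genes called stayed at 0 in each direction under every alternative with a test but 2. With the slide as a block 1 was lower, where 11.8% of all genes were called in either direction. With that block and glucose replicate 2 left out, a setting chosen after seeing the data, 8 were higher and 9 lower. That was 50% of the import genes, against 64.6% of all genes. The median difference of 0.22 lay between 0.0038 and 0.29 when 1 array was left out, at -0.47 under spike-in centring, at 0.0091 with the slide block and without glucose replicate 2, and at 0.021 with xylose replicates 1 and 2 averaged and without glucose replicate 2, also chosen after seeing the data. Spike-in centring shifts every gene by the same -0.69, which put the median of all genes at -0.67. TOM71 less TOM70 ran from -0.83 to -0.18 (exact p 0.2 to 0.6). The replicate block left every difference as it was and called 0 import genes, with 5 (14.7%) at an unadjusted p under 0.05, against 29.0% of all genes, while the count over all genes was 311 with the block and 152 without.

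Differences that changed sign were all uncalled with all arrays, and the cause was not tested, except that the constant shift of spike-in centring turns every positive difference smaller than it. Under spike-in centring they were TOM40 -0.21, TOM22 -0.48, TOM20 -0.67, TOM70 -0.18, TOM71 -0.67, TOM7 -0.22, SAM37 -0.055, MIA40 -0.16, TIM8 -0.45, TIM10 -0.027, TIM13 -0.024, TIM22 -0.43, TIM18 -0.54, TIM23 -0.46, TIM50 -0.44, PAM16 -0.17, PAM17 -0.64, HSP60 -0.38, HSP10 -0.26 and MDJ1 -0.32. Under median centring they were TOM20 at -0.0066 and TOM71 at -0.013. Under normexp they were TOM5 0.11, SAM50 0.20, ERV1 0.10 and TIM21 0.25. With outlying spots kept TIM17 was 0.017, within slide 1 SAM50 was 0.059 and TIM21 0.18, within slide 2 TOM22 was -0.24, TOM20 -0.45, TIM50 -0.22, PAM17 -0.25, HSP60 -0.057, TIM17 0.075 and MAS1 0.050, and with xylose replicates 1 and 2 averaged TOM20 was -0.069. With the slide block and without glucose replicate 2, TOM22 was -0.16, TOM20 -0.39, TOM71 -0.027, TIM50 -0.17, PAM17 -0.21, MAS1 0.054 and HSP60 -0.064. Of these, TOM20 and PAM17 were called lower in that fit, which called 64.6% of all genes in either direction. With those xylose arrays averaged and without that array, TOM22 was -0.17, TOM20 -0.40, TOM71 -0.019, TIM50 -0.18, PAM17 -0.21, MAS1 0.054 and HSP60 -0.063. Leaving out 1 array gave -0.31 to 0.30 for TOM20, -0.25 to 0.19 for TIM21, -0.23 to 0.018 for MAS1, -0.37 to 0.051 for TIM17, -0.038 to 0.055 for TOM71, -0.49 to 0.15 for TOM5, -0.21 to 0.14 for SAM50, -0.41 to 0.046 for ERV1, -0.26 to 0.61 for TOM22, -0.27 to 0.66 for TIM50 and -0.17 to 0.20 for PAM17.

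Over all genes, leaving out 1 array called between 9 and 347 genes as higher and between 3 and 334 as lower, the most without glucose replicate 2. With xylose replicates 1 and 2 averaged the counts were 9 and 3. Within slide 1, with 2 arrays per sugar, 0 genes were called by limma and 992 had an unadjusted p under 0.05.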

Other observations

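Outside the import genes named above, the prohibitins PHB1 and PHB2, partners in a ring complex of the inner membrane, stood apart from each other by array. PHB1 was at 0.21, 0.22 and 0.38 in xylose replicates 1 to 3, against -0.19, -0.45 and -0.53 in glucose replicates 1 to 3, with no overlap (0.66 ± 0.22; limma adjusted p = 0.199). PHB2 was at 1.51, 1.64 and -0.26 in xylose, against 1.15, 1.45 and 0.64 in glucose, so that xylose replicate 3 lay below every other PHB2 array. MIM2, a subunit of the insertase for outer membrane proteins with helical anchors, was at -0.14, 0.07 and -0.49 in xylose, against 0.92, 0.62 and 0.36 in glucose. The MIM2 groups did not overlap, and the difference was -0.82 ± 0.27 (adjusted p = 0.182). These 3 genes were picked after their values were seen.

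Across the 34 genes Spearman's rho between gene length and the difference was -0.25, or -0.23 without glucose replicate 2, against -0.02 and -0.06 over the 5616 genes tested that have a length. The genes were measured on the same arrays, each with its own probe, so they are not independent replicates, and no test was made.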
